A study of Homo sapiens with 17 samples.

Results

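The genes described here are 10 transcription factors and cofactors of the red cell and platelet lineages, GATA1, GATA2, TAL1, KLF1, NFE2, LMO2, ZFPM1, GFI1B, MYB and LYL1. They were chosen by name, as genes known for these lineages, but with earlier results of these data known. They are 10 of the 57638 genes listed in the data. RNA came from 17 libraries of K562, a chronic myeloid leukaemia line that carries the BCR-ABL1 fusion and can make fetal and embryonic haemoglobins. All libraries share their handling: cells received CRISPR plasmids by electroporation, then an antisense oligonucleotide, and were harvested on day 6. The labels tell the groups apart only by plasmid. The GOLGA8N group holds GOLGA8N 1, GOLGA8N 2 and 23-GOLGA8N, and the LAPTM4B group holds LAPTM4B 1, LAPTM4B 2 and 22-LAPTM4B. Single libraries were labelled 20-ARSF, 21-CTPS2, TTR, TRPC5OS, E7, ADORA2A, UBE2V1 and COL6A6. The reference libraries Neg, GFP and RFP name no human gene. The labels give neither the guides nor the oligonucleotide, include no cells without plasmid or oligonucleotide, and do not say what the numbers 20 to 23 before 4 of the labels mean. Nothing in them states separate cultures; the p-values therefore measure only the spread between libraries, which may be technical.

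In blood formation several of these proteins act in shared complexes. GATA1 and GATA2 are zinc finger proteins that bind the motif WGATAR (A or T, then GATA, then A or G), and red cell maturation is marked by replacement of GATA2 by GATA1 at shared sites. TAL1 and its close relative LYL1 are helix-loop-helix proteins that bind DNA with E proteins, and LMO2 bridges them to GATA factors through LDB1. ZFPM1, also called FOG1, is the GATA1 cofactor, KLF1 switches on adult globin and red cell membrane genes, and NFE2 serves platelet and globin genes. GFI1B is a repressor of transcription that acts within both lineages, and MYB keeps progenitors dividing.

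Start-site sequences of 4 of the factors hold the GATA motif and are shown because GATA1 and GATA2, members themselves, bind this motif. RefSeq promoter windows on GRCh38.p14, from 250 bases before to 50 after a start site, were matched for 8 of the 10 genes, in 11 windows; NFE2 and LMO2 had no entry. The motif was searched as AGATAA or AGATAG or TGATAA or TGATAG on both strands, and 25% of all 35116 windows of this length hold it, as do 5 of the 11. Capitals mark the motif, which reads as its reverse complement in KLF1, LYL1 and TAL1. KLF1 (chr19:12887179-12887297, minus strand) has it 66 and 13 bases before the start, LYL1 (chr19:13102821-13102915, minus strand) 27 bases before and 2 bases after, and TAL1 (chr1:47232335-47232400, minus strand) 35 bases before at one of its 2 RefSeq starts. GFI1B has it at both of its RefSeq starts, 3 bases after the upstream one (chr9:132945504-132945569, plus strand) and 116 bases before the downstream one (chr9:132978548-132978613, plus strand).
KLF1: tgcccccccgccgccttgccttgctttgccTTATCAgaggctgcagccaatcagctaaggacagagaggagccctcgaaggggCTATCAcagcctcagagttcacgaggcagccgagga
LYL1: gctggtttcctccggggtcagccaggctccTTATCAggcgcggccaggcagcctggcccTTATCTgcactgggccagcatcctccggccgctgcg
TAL1: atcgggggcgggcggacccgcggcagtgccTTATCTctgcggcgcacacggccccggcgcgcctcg
GFI1B upstream start: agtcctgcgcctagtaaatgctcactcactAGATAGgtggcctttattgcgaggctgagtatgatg
GFI1B downstream start: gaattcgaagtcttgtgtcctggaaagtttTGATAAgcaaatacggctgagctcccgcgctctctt
A match describes these letters only. The windows of GATA1, GATA2, MYB and ZFPM1, and the window at the other TAL1 start, do not hold the motif.

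Reads were 3′ tags, taken from the ends of polyadenylated transcripts, and are given as CPM, estimated counts scaled to a common library total in annotated genes. Totals in genes ran from 549962 in GFP, the shallowest, and 2174638 in 23-GOLGA8N, the next, to 4090195 in 20-ARSF. At a floor of 3 reads these depths allow 5.45 CPM in GFP and 0.733 CPM in 20-ARSF, which covers counting error only. Against the marker lists, all 12 erythroid markers had reads, with a summed level of 6872 to 12700 CPM over the libraries. All 9 myeloid and all 6 epithelial markers also had reads, with sums of 42.7 to 157 CPM and 849 to 2022 CPM. Of 7 fibroblast markers 6 had reads, with a sum of 21.1 to 64.3 CPM. The labels call the cells lymphoblasts, yet 7 of 13 lymphoid markers (MS4A1, CD79B, PAX5, CD3E, CD2, CD8A and DNTT) were at 0, and most of the lymphoid sum of 38.8 to 123 CPM was CD3D. Among the megakaryocyte markers, GP9, PF4 and PPBP were at 0, while GP1BB was at 408 ± 88.7 CPM (SD, n = 17).

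All 10 factors had reads in every library, though LMO2 (2 reads) and ZFPM1 (1 read) lay below the floor of 3 reads in GFP, and all 10 passed the filter on low counts in both fits. Besides GATA1 and GATA2, given below, the genes are annotated on GRCh38 at chromosome 1, 47216290 to 47232220 (TAL1, minus strand), chromosome 19, 12884422 to 12887199 (KLF1, minus strand), chromosome 12, 54292111 to 54301121 (NFE2, minus strand), and chromosome 11, 33858576 to 33892289 (LMO2, minus strand). The others are at chromosome 16, 88453317 to 88537016 (ZFPM1, plus strand), chromosome 9, 132944000 to 132991687 (GFI1B, plus strand), chromosome 6, 135181315 to 135219173 (MYB, plus strand), and chromosome 19, 13099033 to 13103161 (LYL1, minus strand). Per length, in the deposited TPM, LYL1 was at 45.1 ± 8.68 TPM, GATA1 at 38.3 ± 6.7 TPM, NFE2 at 25.8 ± 5.88 TPM, GATA2 at 20.7 ± 3.38 TPM and KLF1 at 18.3 ± 6.39 TPM (SD, n = 17 each). GFI1B followed at 13.1 ± 5.67 TPM, MYB at 13 ± 2.83 TPM, LMO2 at 6.37 ± 2.38 TPM, TAL1 at 2.41 ± 0.61 TPM and ZFPM1 at 0.991 ± 0.489 TPM (SD, n = 17 each). Of the 2 helix-loop-helix genes, LYL1 was above TAL1 in every library, and the GATA1 cofactor ZFPM1 was lowest in mean. Neighbours in this order differed by more than the larger SD at 4 places, between GATA1 and NFE2, MYB and LMO2, LMO2 and TAL1, and TAL1 and ZFPM1. The other 5 steps lay within it, and GFI1B exceeded MYB in only 9 of 17 libraries. The step between LMO2 and TAL1 reversed in CPM, with TAL1 at 32.4 and LMO2 at 25.4 CPM. That CPM step lay within the larger SD, with TAL1 higher in 12 of 17 libraries. A 3′ tag library gives about the same reads for a short and a long transcript, so the TPM order places long transcripts lower. The leading transcripts of GATA2, TAL1 and ZFPM1 have 3367, 4642 and 5432 bases, against 1490 for LYL1 and 1500 for GATA1. CPM puts GATA2 first, at 197 ± 32.9 CPM, and LYL1 next, at 178 ± 30.2 CPM (SD, n = 17 each). That step also lay within the spread, with GATA2 higher in 12 libraries.

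**Figure D1:**
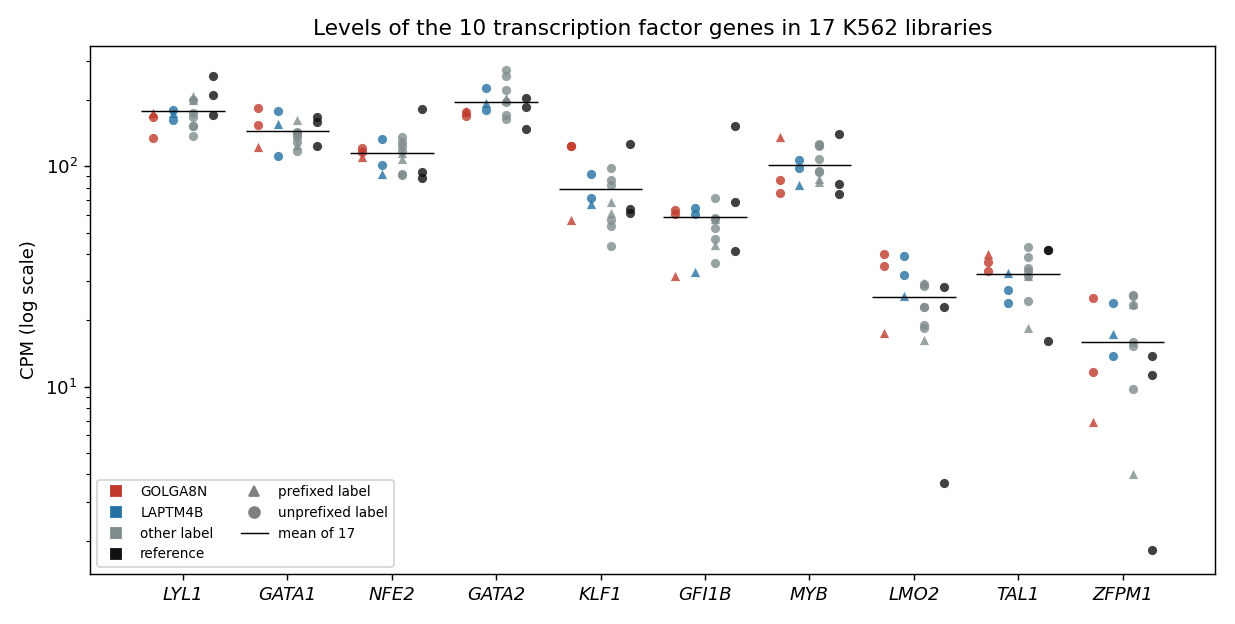
CPM of each factor (y axis, log scale) in 17 libraries, ordered by mean TPM, with points for single libraries coloured by plasmid group, triangles for labels with a number prefix, circles for the others and a line at the mean. The groups overlap for most factors, and the lowest LMO2 and ZFPM1 points, at 3.64 and 1.82 CPM, are the GFP library.

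Read positions along the genes were not examined, only the transcripts to which reads were assigned. For each factor at least 96.7% of the reads were assigned to transcripts ending within 5 bases of the end of its leading transcript. Transcripts sharing an end cannot be told apart by 3′ tags: the quantifier gave between 0% and 38% of the GATA1 reads to the shorter transcript ENST00000376665.4, whose end is 3 bases from that of ENST00000376670.8, with no reads there in 6 libraries. NFE2 reads were divided between ENST00000435572.7, with 78%, and ENST00000312156.8, with 22%, which end at the same base. LMO2 reads fell almost entirely, at 98.8%, on ENST00000411482.1, annotated as a target of nonsense-mediated decay, although 2 protein-coding transcripts that end at the same base were listed at 0. The values below are therefore sums per gene. GATA2-AS1, on the strand opposite GATA2, had 292 reads, 2.9% of those of GATA2. TSC1, which overlaps GFI1B on the opposite strand, had 22.4% of the GFI1B reads. No strand setting is stated in the sources used here, so reads could be exchanged where such genes overlap. Of the GFI1B reads, 97.3% were assigned to ENST00000372123.5, which ends at base 132991687, the annotated end of GFI1B. Where TSC1 overlaps GFI1B was not examined, so these shares do not measure an exchange of reads.

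GATA1 was at 144 ± 21.6 CPM and GATA2 at 197 ± 32.9 CPM (SD, n = 17 each). GATA1 lies on chromosome X, 48786554 to 48794311, plus strand, and GATA2 on chromosome 3, 128479427 to 128493185, minus strand (GRCh38). GATA1 CPM were 153 in GOLGA8N 1, 185 in GOLGA8N 2 and 122 in 23-GOLGA8N, 112 in LAPTM4B 1, 178 in LAPTM4B 2 and 155 in 22-LAPTM4B, against 167 in Neg, 124 in GFP and 159 in RFP. GATA2 CPM, in the same order of libraries, were 168, 176 and 178 with GOLGA8N, 181, 226 and 193 with LAPTM4B, and 148, 204 and 185 in Neg, GFP and RFP. For GATA1 the 3 groups overlap fully. For GATA2 the 3 GOLGA8N libraries lie below the 3 LAPTM4B libraries by a narrow margin, and both overlap the reference libraries. Outside these groups GATA2 reached 273 CPM in ADORA2A and 256 CPM in E7, its highest levels, where GATA1 was at 142 and 143 CPM.

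In TPM, which divides by length, GATA1 had the higher mean, at 38.3 TPM against 20.7 TPM for GATA2. In CPM, GATA2 exceeded GATA1 in 15 of 17 libraries, by a median factor of 1.46 in those 15 and 1.32 over all 17. The exceptions were Neg, with a GATA2 to GATA1 ratio of 0.883, and GOLGA8N 2, with 0.955, and the ratio was largest in ADORA2A, at 1.92. As log2 of GATA1 over GATA2 (1 CPM added to each), it was -0.20 ± 0.31 in the GOLGA8N libraries, -0.45 ± 0.21 in the LAPTM4B libraries and -0.25 ± 0.45 in the reference libraries (SD, n = 3 each). The difference was 0.05 for GOLGA8N minus reference (exact two-sided permutation p = 0.9), -0.20 for LAPTM4B minus reference (exact p = 0.5) and 0.25 for GOLGA8N minus LAPTM4B (exact p = 0.4); with 3 against 3 libraries the smallest possible p is 0.1. Prefixed libraries were at -0.46 ± 0.17 (SD, n = 4) and unprefixed libraries at -0.44 ± 0.35 (SD, n = 13; exact two-sided permutation p = 0.892). Adjusted over the 4 comparisons, each p was 0.9. The sign of each difference but GOLGA8N minus LAPTM4B rests on single libraries: GOLGA8N minus reference was -0.18 without GFP and -0.09 without GOLGA8N 2, LAPTM4B minus reference 0.02 without Neg, and prefixed minus unprefixed 0.04 without 20-ARSF.

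**Figure D2:**
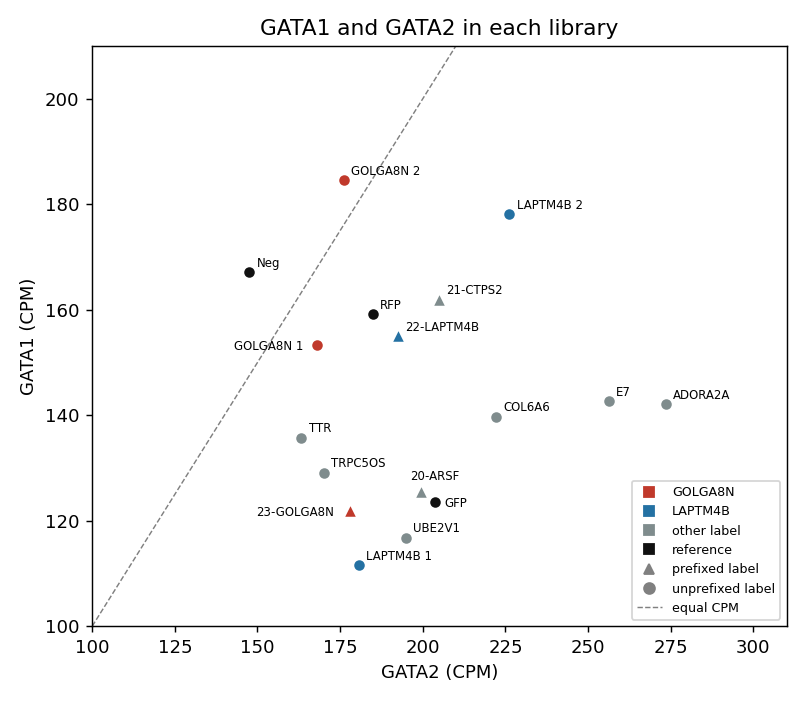
GATA1 CPM (y axis) against GATA2 CPM (x axis) in each of the 17 libraries, coloured by plasmid group, with triangles for prefixed labels and a dashed line at equal CPM. Neg and GOLGA8N 2 lie above the line, and E7 and ADORA2A lie farthest to the right.

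The GOLGA8N libraries were compared with the reference libraries to see whether the factors moved with that plasmid. None of the 10 factors was called by edgeR, at the threshold of 0.05 on the p adjusted over 11916 genes. The background was 0.0168% of genes called, or 2 genes, and 5.68% at an unadjusted p under 0.05, which 0 factors reached. The factors' median log2 fold change was 0.15, against 0.01 over all genes tested. In 8 of 10 it lay above 0, against 50.7% of all genes. By the plain mean of CPM, 5 of 10 factors (GATA1, TAL1, KLF1, LMO2 and ZFPM1) and 40.6% of genes were higher in GOLGA8N libraries, so the fitted direction of GATA2, NFE2 and MYB is not that of their mean CPM. No factor had groups that did not overlap, which 11.8% of genes had.

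KLF1 had the lowest p. Its CPM were 124 in GOLGA8N 1, 124 in GOLGA8N 2 and 57 in 23-GOLGA8N, against 61.1 in Neg, 126 in GFP and 63.7 in RFP. The high values of the GOLGA8N group are its unprefixed libraries, and GFP matched them. The log2 fold change was 0.50 ± 0.31 (SE, 3 against 3 libraries; edgeR adjusted p = 0.939). It was 0.84 ± 0.30 without GFP (edgeR adjusted p = 0.869) and 0.80 ± 0.29 with unprefixed labels only (edgeR adjusted p = 0.776). It was 0.33 without GOLGA8N 1, 0.34 without GOLGA8N 2, 0.34 without Neg and 0.36 without RFP. The NFE2 log2 fold change was 0.48 ± 0.22 without GFP and 0.13 ± 0.25 with it (SE; edgeR adjusted p = 0.869 and 0.995). Against the LAPTM4B libraries, at 71.6, 91.9 and 67.4 CPM in LAPTM4B 1, LAPTM4B 2 and 22-LAPTM4B, the KLF1 log2 fold change was 0.42 ± 0.30 (SE; edgeR adjusted p = 1).

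GFI1B, the repressor, had its highest level in GFP. Its CPM were 60.9 in GOLGA8N 1, 63 in GOLGA8N 2 and 31.7 in 23-GOLGA8N, 60.4 in LAPTM4B 1, 64.4 in LAPTM4B 2 and 33.3 in 22-LAPTM4B, against 69 in Neg, 153 in GFP and 41.2 in RFP. The GFP value rests on 84 reads, and the next highest of the 17 libraries was ADORA2A, at 71.8 CPM. The log2 fold change was -0.52 ± 0.40 for GOLGA8N and -0.52 ± 0.40 for LAPTM4B against the reference libraries (SE; edgeR adjusted p = 0.968 and 1). Without GFP these were 0.05 ± 0.35 and 0.06 ± 0.35 (edgeR adjusted p = 0.999 and 1).

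For LAPTM4B against the reference libraries, 0 of 10 factors and 0% of 11916 genes were called by edgeR. At an unadjusted p under 0.05 there were 0 factors and 3.94% of genes. In 7 of 10 factors the log2 fold change was above 0, against 51.9% of genes. By the plain mean of CPM, 3 of 10 factors (GATA2, LMO2 and ZFPM1) and 41.9% of genes were higher in LAPTM4B libraries, so the fitted direction of GATA1, KLF1, NFE2 and MYB is not that of their mean CPM. No factor had groups that did not overlap, against 10.1% of genes. LMO2 and ZFPM1, the bridging protein and the GATA1 cofactor, had the largest fold changes, with wide errors. LMO2 had 32.2, 38.9 and 25.7 CPM in LAPTM4B 1, LAPTM4B 2 and 22-LAPTM4B, and 22.9, 3.64 and 28.3 CPM in Neg, GFP and RFP (log2 0.80 ± 0.48, SE; edgeR adjusted p = 1). ZFPM1 had 23.9, 13.7 and 17.3 CPM in the same 3 LAPTM4B libraries, and 11.3, 1.82 and 13.8 CPM in Neg, GFP and RFP (log2 1.00 ± 0.61, SE; edgeR adjusted p = 1). GFP held 2 LMO2 reads and 1 ZFPM1 read. Without it the log2 fold changes were 0.45 ± 0.39 and 0.67 ± 0.55. Both comparisons use the same reference libraries; in GOLGA8N libraries LMO2 was at log2 0.75 ± 0.48 and ZFPM1 at 0.68 ± 0.62 against them (SE), neither called. In that comparison LMO2 was at 0.41 without GFP and 1.15 without RFP, and ZFPM1 at 0.35 without GFP, 0.06 without GOLGA8N 2 and 1.06 without RFP.

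Set directly against LAPTM4B, the GOLGA8N libraries again showed 0 of 10 factors called by edgeR, with 0.00839% of genes called, and 0 factors against 2.04% of genes at an unadjusted p under 0.05. The log2 fold change was above 0 in 5 of 10 factors and in 48.4% of genes. GATA2 and TAL1 had groups that did not overlap, against 8.35% of all genes. TAL1 CPM were 36.7 in GOLGA8N 1, 33.6 in GOLGA8N 2 and 40 in 23-GOLGA8N, against 27.3 in LAPTM4B 1, 24.1 in LAPTM4B 2 and 32.7 in 22-LAPTM4B. The groups nearly touch, and the reference libraries spanned both, with 41.5, 41.8 and 16.1 CPM in Neg, GFP and RFP. The log2 fold change was 0.40 ± 0.37 for TAL1 and -0.19 ± 0.18 for GATA2 (SE; edgeR adjusted p = 1 for both). LYL1 and NFE2 were at -0.11 ± 0.19 and 0.10 ± 0.25, also not called.

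**Figure D3:**
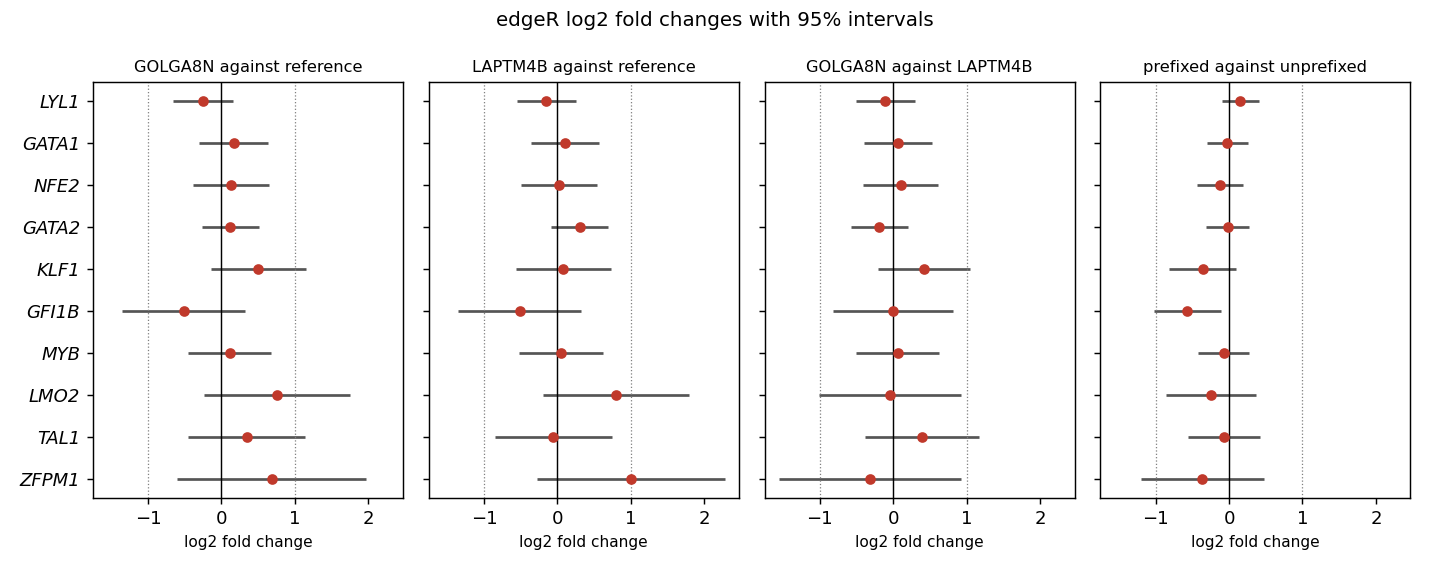
edgeR log2 fold changes (x axis, points) with 95% intervals (lines) for the 10 factors (rows, ordered by mean TPM) in 4 comparisons, with dotted lines at a doubling and a halving. Every interval spans 0 except that of GFI1B in prefixed against unprefixed libraries, from -1.03 to -0.11.

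The intervals differ in width between factors. A doubling and a halving both lay outside the 95% interval for 5 of 10 factors in GOLGA8N against reference, 7 of 10 in LAPTM4B against reference, 6 of 10 in GOLGA8N against LAPTM4B and 8 of 10 in prefixed against unprefixed libraries. For GATA1 the interval in GOLGA8N against reference ran from -0.30 to 0.63 on the log2 scale, for GATA2 from -0.27 to 0.51, and for LYL1 from -0.66 to 0.15. For ZFPM1 it ran from -0.60 to 1.97 and for LMO2 from -0.24 to 1.75, which hold a doubling of either.

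The number prefix divides the series otherwise, into 4 prefixed and 13 unprefixed libraries. Among 12319 genes edgeR called 35, or 0.284%, and 0 of the 10 factors. In 9 of the 10 the log2 fold change was below 0, with a median of -0.10; over all genes 47.8% were above 0, with a median of -0.02. LYL1 was the factor above 0, at 0.15 ± 0.12 (SE; edgeR adjusted p = 0.805), with 189 ± 17.4 CPM in prefixed (SD, n = 4) and 174 ± 32.9 CPM in unprefixed libraries (SD, n = 13). No factor had groups that did not overlap, against 0.357% of genes. GATA1 and GATA2 differed least, at -0.02 ± 0.14 and -0.02 ± 0.14 (SE; edgeR adjusted p = 0.982 and 0.99), with intervals from -0.30 to 0.25 and from -0.31 to 0.28.

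GFI1B was the one factor with an unadjusted p under 0.05, which 9.36% of genes had. It had 43.8, 57.4, 33.3 and 31.7 CPM in 20-ARSF, 21-CTPS2, 22-LAPTM4B and 23-GOLGA8N, and from 36.4 CPM in E7 through a median of 60.4 to 153 CPM in GFP in the unprefixed libraries. The prefixed libraries hold the 2 lowest values of the series, 23-GOLGA8N and 22-LAPTM4B, and the groups overlap. The log2 fold change was -0.57 ± 0.23 (SE, 4 against 13 libraries; edgeR adjusted p = 0.398), and -0.46 ± 0.19 without GFP (edgeR adjusted p = 0.37). Without 22-LAPTM4B or 23-GOLGA8N it was -0.49 ± 0.26 or -0.47 ± 0.25, with unadjusted edgeR p of 0.0657 and 0.0692. Among the GOLGA8N and LAPTM4B libraries alone, with the named gene as a term, it was -0.91 ± 0.26 (SE, 2 against 4 libraries; edgeR adjusted p = 0.155). In that fit KLF1 was at -0.65 ± 0.24 (edgeR adjusted p = 0.358), against -0.36 ± 0.22 over all 17 libraries (edgeR adjusted p = 0.682). KLF1 was at 63.6 ± 5.57 CPM in prefixed (SD, n = 4) and 83.3 ± 28.3 CPM in unprefixed libraries (SD, n = 13).

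CPM of MYB, the progenitor factor, were 86.1 in GOLGA8N 1, 75.6 in GOLGA8N 2 and 135 in 23-GOLGA8N, 98.1 in LAPTM4B 1, 106 in LAPTM4B 2 and 82.4 in 22-LAPTM4B, against 83.4 in Neg, 74.6 in GFP and 140 in RFP. The 2 highest libraries of the series, RFP and 23-GOLGA8N, thus lie in different groups. Its mean was 99 CPM in GOLGA8N, 95.6 CPM in LAPTM4B and 99.2 CPM in reference libraries, while the fitted log2 fold changes against the reference, 0.11 ± 0.27 for GOLGA8N and 0.05 ± 0.27 for LAPTM4B (SE; edgeR adjusted p = 0.999 and 1), had the opposite sign to the differences of these means. The NFE2 values ran from 88.1 CPM in RFP through a median of 115 CPM to 182 CPM in GFP, and those of LYL1 from 135 CPM in GOLGA8N 2 through 174 CPM to 256 CPM in GFP.

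The factors' spread over libraries was set beside that of genes at a similar level. The coefficient of variation in CPM ran from 15% for GATA1 to 49.3% for ZFPM1, where counting error alone would give 5.4% and 16.3%. In edgeR's biological coefficient of variation over the 17 libraries, 4 of 10 factors lay below the median of genes within 0.5 log2 CPM. LYL1 was among the steadier, at 0.172, lower than all but 11% of 546 such genes. KLF1 was at 0.271, above 94.3% of 1088 such genes. GFP held the highest level of 4 factors (LYL1, NFE2, KLF1 and GFI1B) and the lowest of 3 (LMO2, ZFPM1 and MYB), while it held the highest level of 19.3% and the lowest of 22.2% of all genes tested. Summed over the 10 factors, levels were 811 CPM in TTR to 1166 CPM in GFP. In bulk RNA, fewer cells that express a gene and less of its RNA per cell cannot be told apart.

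**Figure D4:**
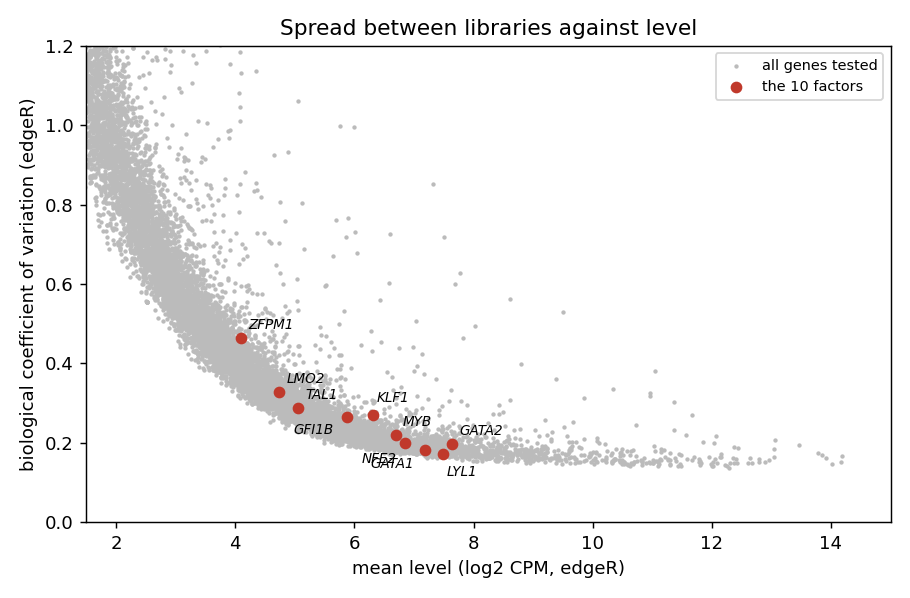
edgeR biological coefficient of variation (y axis) against mean level (x axis, log2 CPM) over 17 libraries, with the 10 factors in red and all genes tested in grey; genes beyond the axis limits are not drawn. LYL1 and GATA1 lie in the lower part of the cloud and KLF1, at 0.271, near its upper edge.

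Partners of the factors were described from a list of 34 genes for their complexes, all of which passed the filter on low counts. TCF3, the E protein that pairs with TAL1 and LYL1, was at 136 ± 25.8 CPM, CHD4, an ATPase of the NuRD repressor, at 133 ± 18.9 CPM, and LDB1, which joins LMO2 to its partners, at 36.6 ± 15.6 CPM (SD, n = 17 each). None of the 34 was called in any of the 4 comparisons by edgeR. LDB1 was at 24.2 ± 5.82 CPM in GOLGA8N and 53.9 ± 29 CPM in reference libraries (SD, n = 3 each; log2 -0.92 ± 0.38, edgeR adjusted p = 0.848). GFP held 87.3 CPM of LDB1, from 48 reads; without it the other 2 reference libraries averaged 37.2 CPM and the log2 fold change was -0.48 ± 0.36. MAFF, a small MAF protein, a family that dimerises with NFE2, was at 17.9 ± 2.82 CPM in GOLGA8N and 7.35 ± 1.29 CPM in reference libraries (log2 1.43 ± 0.60; edgeR adjusted p = 0.848). In LAPTM4B against reference the lowest p belonged to MAFF, at log2 1.22 ± 0.59, and MED1, a Mediator subunit, at 0.70 ± 0.38, and in GOLGA8N against LAPTM4B to the acetyltransferase EP300, at 0.79 ± 0.46, and LDB1, at -0.64 ± 0.37 (edgeR adjusted p = 1 for all). MAFG, another small MAF protein, was at 95 ± 14.7 CPM in prefixed (SD, n = 4) and 64.9 ± 15.5 CPM in unprefixed libraries (SD, n = 13; log2 0.57 ± 0.18, edgeR adjusted p = 0.223), and MED1 was at log2 0.57 ± 0.23 (edgeR adjusted p = 0.39). In the 4 comparisons 12, 13, 13 and 12 of the 34 had a log2 fold change above 0, against 50.7%, 51.9%, 48.4% and 47.8% of genes.

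Known targets of the factors in red cells were listed as 38 genes, of which 32 were tested. The list was drawn up with earlier results of these data known, so its share of calls is a description. In prefixed against unprefixed libraries 2 of the 32 rose and 0 fell, where 29 of all 12319 genes rose and 6 fell (0.284% called). SLC25A37, the mitochondrial iron importer mitoferrin, was at 302 ± 23 CPM in prefixed (SD, n = 4) and 178 ± 34.4 CPM in unprefixed libraries (SD, n = 13; log2 0.78 ± 0.13, edgeR adjusted p = 0.00316). HBE1, embryonic epsilon globin, was at 813 ± 188 CPM in prefixed (SD, n = 4) and 459 ± 87 CPM in unprefixed libraries (SD, n = 13; log2 0.83 ± 0.16, edgeR adjusted p = 0.0191). The SLC25A37 call was kept under each alternative run, with adjusted p up to 0.0411, and the HBE1 call was not. The HBE1 log2 fold change was 0.87 without 22-LAPTM4B, 0.76 without 21-CTPS2 and 0.73 without 20-ARSF (edgeR adjusted p = 0.13, 0.11 and 0.0654). Among GOLGA8N and LAPTM4B libraries with the named gene as a term it was 0.49 ± 0.15 (edgeR adjusted p = 0.238). The median over the 32 was 0.04, against -0.02 over all genes. In GOLGA8N against reference 24 of 32 had a log2 fold change above 0, with a median of 0.33, and in LAPTM4B against reference 26 of 32, with a median of 0.26; in neither was any called, nor in GOLGA8N against LAPTM4B, where 19 of 32 were above 0. Over all genes tested, 50.7%, 51.9% and 48.4% were above 0, in the same order of comparisons. By the plain mean of CPM, 20 of 32 were higher in GOLGA8N and 23 of 32 in LAPTM4B than in reference libraries, against 40.6% and 41.9% of genes. At an unadjusted edgeR p under 0.05 there were 10, 5 and 0 of the 32, and 6 for the prefix, also a description. The shares over all genes were 5.68%, 3.94%, 2.04% and 9.36%. HBE1 was at 541 ± 82.4 CPM in GOLGA8N, 534 ± 160 CPM in LAPTM4B and 366 ± 76.2 CPM in reference libraries (SD, n = 3 each). Its log2 fold changes against the reference were 0.70 ± 0.21 and 0.68 ± 0.21 (edgeR adjusted p = 0.606 and 1). Without GFP these were 0.53 and 0.52. The GOLGA8N value was 0.63 without 23-GOLGA8N, and the LAPTM4B value was 0.39 without 22-LAPTM4B. GFP held 278.5 CPM of HBE1, and the other 2 reference libraries averaged 409 CPM. HBZ, embryonic zeta globin, was at log2 0.58 ± 0.19 in GOLGA8N and HBA1, alpha globin, at 0.57 ± 0.21 in LAPTM4B libraries against the reference (edgeR adjusted p = 0.718 and 1). Without GFP, HBZ was at 0.71 and HBA1 at 0.40 in these comparisons. With 23-GOLGA8N left out HBZ was called, at log2 0.82 (edgeR adjusted p = 0.033), as it was among unprefixed labels alone, at log2 0.81 (edgeR adjusted p = 0.00933). HBZ was not called without GOLGA8N 1, at log2 0.37, or without GOLGA8N 2, at 0.53 (edgeR adjusted p = 0.914 and 0.915). HBA1 has a near-identical copy, HBA2, between which reads are divided uncertainly. HBZ and HBG1, fetal gamma globin with its near copy HBG2, were each at 0.32 in GOLGA8N against LAPTM4B. The summed erythroid markers spanned 7792 to 11190 CPM in prefixed and 6872 to 12700 CPM in unprefixed libraries.

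Other lists showed no call in edgeR. Of 24 platelet lineage genes 6 were tested, and F2RL3, a thrombin receptor, was at 9.46 ± 0.89 CPM in GOLGA8N and 18.9 ± 4.39 CPM in reference libraries (log2 -0.88 ± 0.52, edgeR adjusted p = 0.924). Of the 6, 4 were above 0 in that comparison, 3 in LAPTM4B against reference, 5 in GOLGA8N against LAPTM4B and 3 in prefixed libraries; MYL9, LAT and CD9, which with F2RL3 had the lowest p, were also not called. Of 29 other blood transcription factors 18 were tested, of which 11, 11, 13 and 7 were above 0 in the 4 comparisons. Over all genes tested, 50.7%, 51.9%, 48.4% and 47.8% were above 0 in these comparisons. STAT5A and HHEX were among those of the 18 with the lowest p. KLF3, a repressor of the KLF family, was at 19.7 ± 5.1 CPM in GOLGA8N and 6.47 ± 5.61 CPM in reference libraries (SD, n = 3 each; log2 1.52 ± 0.64, edgeR adjusted p = 0.848). GFP held 0 KLF3 reads. Without GFP the other 2 reference libraries averaged 9.7 CPM of KLF3 and the log2 fold change was 1.15 ± 0.53 (SE). KLF6, a widely expressed member of the same family, was at 45.7 ± 16.3 CPM in prefixed (SD, n = 4) and 16.5 ± 12 CPM in unprefixed libraries (SD, n = 13; log2 1.49 ± 0.39, edgeR adjusted p = 0.132; 0.0396 with DESeq2), and FOXO3 at 25.7 ± 5.45 and 12.5 ± 4.9 CPM in these groups (log2 1.07 ± 0.31, edgeR adjusted p = 0.171).

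Genes whose CPM followed the 3 factors with the most reads were ranked by Spearman's rho over the 17 libraries, among 2484 genes averaging at least 50 CPM; as the highest of so many, and sharing library depth, these values are a description. For GATA2 they were CHD4 (rho 0.838), UROD, a haem synthesis enzyme (0.777), and STK24, a kinase (0.716). For LYL1 they were CNIH4 (0.850), OAZ1 (0.743) and EPN1 (0.740), and for GATA1 they were OLA1 (0.860), THOC7 (0.811) and ITM2A (0.772).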

How the data were processed

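The authors deposited, per the file headers, 1 Salmon-style table per library with estimated counts (expected counts, not always whole) and TPM for 228297 transcripts; the deposited TPM were used as given. Per the submitters' processing notes the tools were STAR 0.7.2, Salmon 0.7.2, featureCounts and UMI-tools, with GRCh38 and hg38; the sources used here do not state whether reads sharing a 12-base molecular identifier were collapsed. Per the labels' protocols, libraries were 3′ tags of total RNA.

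Transcripts were matched to GENCODE 29 genes by identifier (205336 matched; 3.32% to 3.6% of reads had no gene and were left out), summed per gene, scaled to CPM and rounded for tests. edgeR 4.0.16 in R 4.3.3 (TMM, filterByExpr, robust quasi-likelihood) was fitted to the 9 GOLGA8N, LAPTM4B and reference libraries, or to all 17 for the prefix, with Benjamini-Hochberg adjustment over all genes tested and a threshold of 0.05. SE is the fold change over the square root of F, and 95% intervals use the fit's degrees of freedom. The fits of GOLGA8N against reference and of the prefix were tested on simulated data. For GOLGA8N, 31 of 50 genes raised 4-fold and 1 of 50 raised 2-fold were recovered, with 3 false calls among 73. For the prefix these were 42 of 50 and 22 of 50, with 4 false calls among 122. Most doublings were thus missed in the simulated GOLGA8N comparison. The fit scales libraries by TMM and weights them by depth, so its sign can differ from that of a difference of mean CPM. The members and lists were chosen with earlier results of these data known. The genes named outside the members are the 2 list members with the lowest p, those called, and the 3 genes nearest in rank, of which some are not reported here; the levels of TCF3, and of CHD4 and LDB1 over all libraries, were added after their values were seen. Alternatives were DESeq2 1.42.0, other size factors, no filter, other sets of libraries and leaving out libraries in turn.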

Additional observations from a re-analysis of the deposited data

Results flagged for a closer look

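Among the 4 prefixed libraries, MYB in 23-GOLGA8N stood far from the others, at 135 CPM against 82.4, 84.6 and 87.9 CPM in 22-LAPTM4B, 20-ARSF and 21-CTPS2. It was the 1 value set apart in this way among 11 checked in these 4 libraries (the 10 factors and the GATA1 to GATA2 ratio), where chance sets apart about 1 in 20. It rests on 294 reads, and RFP reached 140 CPM.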

How the results depend on the processing

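None of the 10 factors was called in any of the 490 fold changes computed under the alternatives; the lowest adjusted p was 0.155, and 429 kept their direction while 61 changed sign. The causes of the changes below were not tested. Genes called numbered 2 for GOLGA8N against reference, 0 for LAPTM4B against reference, 1 for GOLGA8N against LAPTM4B and 35 for the prefix. In that order they were 42, 25, 9 and 557 with no filter on low counts, and 10, 1, 2 and 115 with DESeq2. With all 17 libraries in the fit they were 18, 4 and 4 for the first 3 comparisons, and with unprefixed labels only 7, 2 and 2. GOLGA8N against reference gave 1 with median-of-ratios size factors, 1 without GFP and 8 with the label prefix as a term, and the prefix gave 73 among GOLGA8N and LAPTM4B libraries with the named gene as a term. Leaving out each compared library in turn gave 1 to 5, 0 to 1 and 1 to 3 in the first 3 comparisons. For the prefix, leaving out each of the 4 prefixed libraries gave 2 to 29, with 2 without 22-LAPTM4B, 7 without 23-GOLGA8N and 11 without 21-CTPS2, and leaving out GFP gave 46; the other unprefixed libraries were not left out. For libraries titled 1 and 2, 2 genes were called with the replicate block and 2 without it; deviations of the same number correlated at r = 0.14 over 2 pairs, so the numbers are not shown to pair libraries.

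The GATA1 to GATA2 log2 ratio changed sign to 0.046 for the prefix with TPM and to -0.18 for GOLGA8N against reference without GFP. With 1 library left out it ran from -0.18 to 0.26 for GOLGA8N against reference, from -0.43 to 0.017 for LAPTM4B against reference and from -0.078 to 0.040 for the prefix. By TPM in place of CPM the ranks were LYL1 1, GATA1 2, NFE2 3, GATA2 4, KLF1 5, GFI1B 6, MYB 7, LMO2 8 and TAL1 9.

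Log2 fold changes that changed sign without GFP were GFI1B 0.052 and MYB -0.046 in GOLGA8N against reference, and GATA1 -0.015, TAL1 0.093, GFI1B 0.057 and MYB -0.10 in LAPTM4B against reference. MYB in GOLGA8N against reference was -0.17 with unprefixed labels only and -0.0015 with the prefix term, and in LAPTM4B against reference -0.019 with the prefix term. NFE2 in LAPTM4B against reference was -0.020 with median-of-ratios size factors and -0.0088 with DESeq2. In GOLGA8N against LAPTM4B, LMO2 was 0.11, GFI1B 0.021 and MYB -0.30 with unprefixed labels only, 0.11, 0.019 and -0.31 with the replicate block and 0.11, 0.019 and -0.30 without it, and GFI1B was 0.0024 with median-of-ratios size factors and 0.0011 with DESeq2. For the prefix with the named gene as a term GATA2 was 0.0090, TAL1 0.29 and MYB 0.26.

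With 1 library left out, the ranges that crossed 0 in GOLGA8N against reference were -0.011 to 0.64 for TAL1, -0.041 to 0.48 for NFE2, -0.87 to 0.052 for GFI1B and -0.17 to 0.48 for MYB. In LAPTM4B against reference they were -0.015 to 0.28 for GATA1, -0.41 to 0.24 for TAL1, -0.085 to 0.42 for KLF1, -0.14 to 0.37 for NFE2, -0.86 to 0.057 for GFI1B and -0.10 to 0.42 for MYB. In GOLGA8N against LAPTM4B they were -0.11 to 0.20 for GATA1, -0.29 to 0.24 for LMO2, -0.96 to 0.016 for ZFPM1, -0.23 to 0.25 for GFI1B, -0.23 to 0.22 for MYB and -0.18 to 0.00037 for LYL1. For the prefix they were -0.092 to 0.035 for GATA1, -0.031 to 0.017 for GATA2 and -0.22 to 0.12 for TAL1. Among the listed genes with printed values, HBG1 ran from -0.013 to 0.51 in GOLGA8N against LAPTM4B. In GOLGA8N against reference, HBE1 (0.71) and HBZ (0.60) were called with no filter on low counts, and HBZ (0.73) with the prefix as a term; for the prefix, KLF6 was called with no filter (1.49), with DESeq2 (1.49) and with the named gene as a term (2.25).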
